A study of Homo sapiens with 6 samples.

Results

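The expression of 39 genes of glycolysis and of the response to low oxygen was examined in PC-3 cells depleted of CdGAP. The members were chosen by symbol from the 64253 genes of the deposited tables, and all 39 were found and passed the filter on low counts. PC-3 is a human cell line of metastatic, castration-resistant prostate cancer, and CdGAP, the product of ARHGAP31, is a GTPase-activating protein for Rac1 and Cdc42. Cells infected with a lentivirus for a short hairpin RNA against CdGAP (shCdGAP, 3 libraries) were compared with cells carrying a control hairpin (shCon, 3 libraries), and the depleted cells were selected with puromycin. According to the methods, the CdGAP-depleted cells were grown up from single cells, which is not stated of the control cells. Clone 2 is named for the knockdown in PC-3 cells, whereas the sequencing methods name no clone, so an effect of the hairpin and a property of 1 clone cannot be told apart. The methods describe no variation of oxygen, and the comparison asks how these genes differed between the depleted and the control cells. The methods give the same medium for both, but not the density or oxygen of the sequenced cultures.

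Glycolysis splits glucose into pyruvate in a series of enzymatic steps in the cytosol, most of which are served by several isozymes, and lactate dehydrogenase then turns pyruvate into lactate. When oxygen falls, the prolyl hydroxylases that mark the alpha subunits of the hypoxia-inducible factors (HIF) for degradation slow down, and the stabilised factors bind a short motif with the core CGTG near many of these genes and raise their transcription. Many tumour cells run glycolysis at a high rate even where oxygen is plentiful, and several HIF targets, CA9 among them, serve as markers of hypoxic areas in tumours.

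The libraries held between 33182796 and 43154039 counted reads. ARHGAP31 was lower in every shCdGAP library, at 26.8 ± 0.351 CPM (counts scaled to a common library total, SD, n = 3) against 59.2 ± 1.22 CPM (log2 fold change -1.14, SE 0.0409). The change was -54.7%, whereas for clone 2 the paper states a larger reduction of CdGAP protein and mRNA. The epithelial genes KRT8, KRT18, KRT19, EPCAM and CDH1 were present in all libraries. EPCAM and KRT19 were higher in shCdGAP cells (log2 fold changes of 1.35 and 1.04, or 1.30 and 0.79 without shCdGAP replicate 2). KRT8 and KRT18 did not pass, and CDH1 (E-cadherin) had a log2 fold change of -0.72 (adjusted p = 0.0636), or -1.09 without shCdGAP replicate 2 (adjusted p = 9.45e-18). The prostate-specific antigen gene KLK3 had no read in any library. Of 9 markers of other cell types, CD3E had no read and PTPRC, CDH5 and DES were too low to be tested. Of the 5 that were tested, 4 (CD68, COL1A1, COL3A1 and ACTA2) were higher in shCdGAP cells. The fifth, the endothelial gene PECAM1, had a log2 fold change of -0.57 that did not pass and of -1.14 without shCdGAP replicate 2 (adjusted p = 1.49e-10), and CDH5, also endothelial, had 0.0588 CPM on average in shCdGAP and 0.221 CPM in shCon libraries. COL1A1 rose from 17.3 to 19.0 CPM in shCon libraries to 55.9 to 59.3 CPM in shCdGAP libraries. Summed over all 9 markers, most of it COL1A1, the level was 72.2 to 75.4 CPM in shCdGAP and 26.2 to 27.9 CPM in shCon libraries. The part of these markers in the results on glycolysis and hypoxia genes was not tested. shCdGAP replicate 2 stood apart, with 3.55% of genes over 1.5-fold from the mean of the other shCdGAP libraries, where every other library had between 0.134% and 1.12%, so many results below are given with and without it. Values below are listed in the order of replicates 1, 2 and 3.

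At an adjusted p under 0.01 (edgeR, Benjamini-Hochberg over 16439 genes), 46.2% of all tested genes differed between shCdGAP and shCon cells in either direction, and so did 16 of the 39 members (41%). Of these, 11 were higher in shCdGAP cells (28.2%, where 24.1% of all tested genes were higher) and 5 were lower (12.8%, where 22% of all tested genes were lower). The other 23 did not pass. Among those that rose were the glucose transporter gene SLC2A1, the hexokinase gene HK1, the aldolase gene ALDOC, the carbonic anhydrase gene CA9 and both collagen prolyl hydroxylase genes P4HA1 and P4HA2. Those that fell were GPI, PFKL, LDHB, EGLN1 and KDM3A. A change of more than 2-fold with the same adjusted p was found for 4 members, all higher (SLC2A3, ALDOC, CA9 and P4HA2, 10.3% against 8.56% of all tested genes), and for 0 members in the lower direction, against 4.19% of all tested genes. SLC2A3 passed the filter on low counts only through the shCdGAP libraries and so had to differ, and its call is a description. It is included in the counts of 16, 11 and 4 members and in their shares. Without it only ALDOC, CA9 and P4HA2 rose over 2-fold, so the 10.3% is not read as above 8.56%. The count of falls over 2-fold was also 0 by DESeq2. In the edgeR fit no threshold on p could change it, since the lowest member, LOX, had a log2 fold change of -0.98. Without shCdGAP replicate 2 LOX was at -1.48 (edgeR adjusted p = 9.23e-19), a fall of more than 2-fold. The median log2 fold change of the members was 0.09, beside 0.01 for all tested genes. In RNA of whole cultures, a difference in the share of cells that express a gene and a difference in its RNA per cell cannot be told apart.

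For 67.1% of all tested genes the libraries of the groups did not overlap. Among the members they did not overlap for 16 genes with higher and 7 genes with lower values in shCdGAP cells (41% and 17.9%, against 34.4% and 32.7% of all tested genes). For the other 16 members they overlapped. SLC2A3, which has no shCon read and so had to be separate, is counted among the higher genes.

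**Figure D1:**
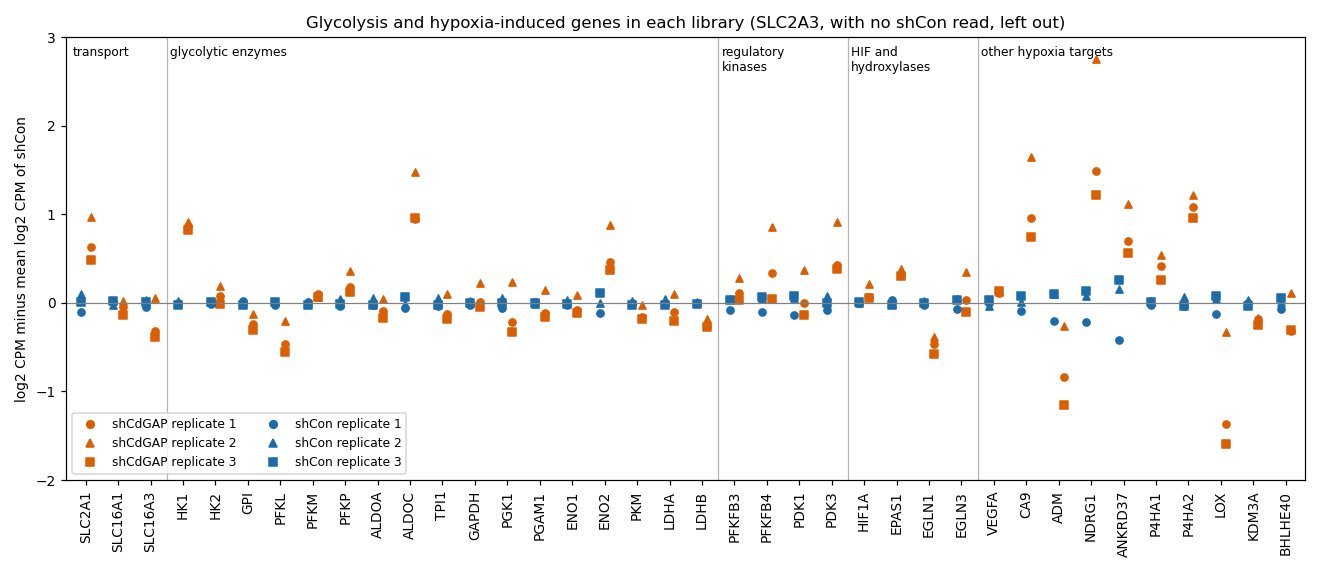
Level of each member in each of the 6 libraries (points), as its log2 CPM minus the mean log2 CPM of the shCon libraries, with members grouped by role and SLC2A3, which has no shCon read, left out. The orange triangles (shCdGAP replicate 2) are the highest shCdGAP points for every gene drawn except PFKM and VEGFA.

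shCdGAP replicate 2 was the highest of the shCdGAP libraries for 37 of the 39 members (94.9%), where it was the highest for 41.4% of all tested genes. The 2 exceptions were PFKM, a phosphofructokinase gene, and VEGFA, the angiogenic growth factor gene. The ratio of this library to the mean of shCdGAP replicates 1 and 3 had a median of 1.19 over the members and of 0.998 over all tested genes, and it ranged from 0.988 for PFKM to 2.62 for NDRG1. It was above 1.5 for SLC2A3, PFKFB4, CA9, ADM, NDRG1 and LOX, which are 6 of the 39 members (15.4%, where 6% of all tested genes were above 1.5). The corresponding ratio in shCon cells had a median of 1.03 over the members, and shCon replicate 2 was the highest shCon library for 21 of the 38 members with reads in that group (55.3%, against 36.4% of all genes). The median coefficient of variation of the members was 10.7% in shCdGAP and 2.72% in shCon cells, beside 7.7% and 3.9% over all tested genes.

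Without shCdGAP replicate 2, 14 members were higher (35.9%) and 16 were lower (41%), where 30% of the genes then tested were higher and 30% were lower. The median log2 fold change of the members was then -0.02. The number of falls thus went from 5 to 16 when this library was left out, the log2 fold change was lower for all 39 members, and none that passed in the full comparison changed direction. The p-values and calls of these fits are not comparable, and this library was singled out by its values. Even for HK1, whose libraries lay close together, the edgeR adjusted p was 1.92e-07 with this library and 1.88e-28 without it. What set this library apart is not given in the sources used here and was not tested.

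**Figure D2:**
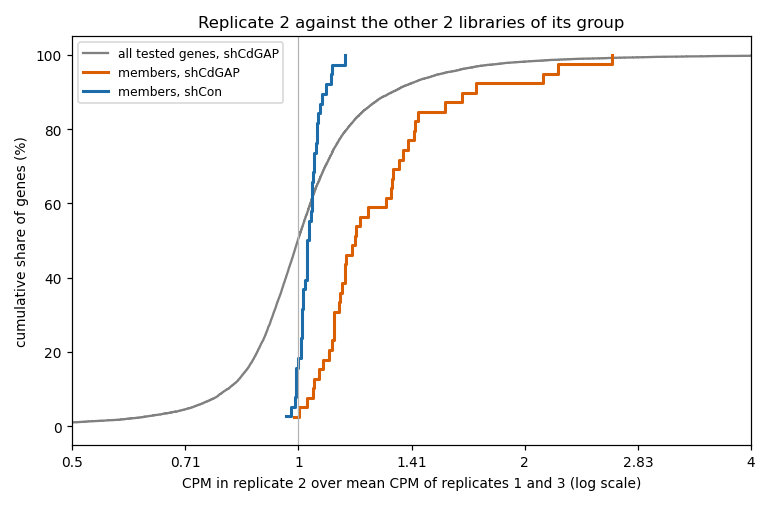
Cumulative share of genes (percent) against the ratio of CPM in replicate 2 to the mean CPM of replicates 1 and 3 (log scale), for the members in shCdGAP cells (orange) and in shCon cells (blue) and for all tested genes in shCdGAP cells (grey). The shCdGAP ratios have a median of 1.19 and reach 2.62 for NDRG1, while the shCon ratios have a median of 1.03.

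To show what the members share in sequence, the 250 bases before each start site were searched on both strands for ACGTG and GCGTG, the usual forms of the HIF motif, in the RefSeq promoter table of GRCh38.p14. Of the 39 members, 35 had an entry in that table, and no entry was used for SLC2A3, SLC16A1, VEGFA and NDRG1. ACGTG was found for 60% of these 35 genes and for 21.7% of all genes in the table, and GCGTG for 51.4% and 36.2%. A gene was counted if any of its entries matched, and the 35 members had 65 entries where all 27305 genes had 35116. Per entry, ACGTG was found in 40% of member windows and 18.5% of all windows. GCGTG was found in 33.8% and 32.2% of them, which is little apart. Either form was found for 82.9% of the members and 47.4% of all genes. The palindrome CACGTG, which holds ACGTG on both strands and is also the E-box of other factors, was found for 22.9% and 7.73%. The member windows were richer in G and C, with a median of 68.4% against 58%. Many members are listed for their induction by HIF, so the share is a description of the list, and a match is not a bound site.

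Of these windows, 4 are shown because their genes stand for different behaviours in the comparison. PFKL was among the called falls (chr21:44299803-44300050, plus strand), PGK1 overlapped between groups until shCdGAP replicate 2 was left out (chrX:78103998-78104173, plus strand), PDK3 was among the called rises (chrX:24465036-24465220, plus strand) and LOX was the lowest member (chr5:122078286-122078509, minus strand). Each run is the part of the 250 bases that lies outside every exon of the deposited annotation, written from 5′ to 3′ along the gene, with capitals at each ACGTG or GCGTG, or their reverse complements CACGT and CACGC.
PFKL: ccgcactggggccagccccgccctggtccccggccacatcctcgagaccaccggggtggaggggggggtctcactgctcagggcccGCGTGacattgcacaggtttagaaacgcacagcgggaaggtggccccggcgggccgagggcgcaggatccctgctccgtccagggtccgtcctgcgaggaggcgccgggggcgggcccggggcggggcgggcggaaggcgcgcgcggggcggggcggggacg
PGK1: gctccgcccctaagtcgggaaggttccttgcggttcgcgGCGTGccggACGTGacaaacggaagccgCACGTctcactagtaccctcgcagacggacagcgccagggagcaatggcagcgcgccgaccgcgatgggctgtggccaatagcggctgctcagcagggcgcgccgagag
PDK3: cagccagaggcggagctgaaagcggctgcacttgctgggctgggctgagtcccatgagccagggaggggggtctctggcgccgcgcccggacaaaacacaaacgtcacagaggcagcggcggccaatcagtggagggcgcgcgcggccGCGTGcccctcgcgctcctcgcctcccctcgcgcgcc
LOX: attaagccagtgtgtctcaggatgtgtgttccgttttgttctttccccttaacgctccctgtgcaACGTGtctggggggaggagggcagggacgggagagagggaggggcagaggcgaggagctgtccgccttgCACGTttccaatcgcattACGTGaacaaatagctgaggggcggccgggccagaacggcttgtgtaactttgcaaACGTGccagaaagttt
PFKL and PDK3 had a single marked copy in the runs shown, PGK1 had 3 within a short stretch, and LOX had 4. The whole 250-base window of PDK3 had 2 matches, one of which lies in an exon and is not shown.

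The transporters move glucose in and lactate out. SLC2A1, the main glucose carrier of most cells (GLUT1, at 1:42925381-42958859 of GRCh38), was measured at 136, 172 and 122 CPM in shCdGAP and at 81.2, 93.4 and 87.9 CPM in shCon libraries. Every shCdGAP library was above every shCon library, and the log2 fold change was 0.71 (SE 0.126, edgeR adjusted p = 0.00253), or 0.55 without shCdGAP replicate 2 (adjusted p = 0.00543). The call was lost without shCon replicate 1 (adjusted p = 0.0102) and without the filter on low counts (0.0403). SLC2A3, the high-affinity neuronal carrier GLUT3, had 14, 28 and 9 reads in shCdGAP and no read in shCon libraries. Its mean was at least 5.36-fold higher than a floor of 3 reads per library, which covers counting error only. Since SLC2A3 passed the filter only through the shCdGAP libraries, its call by edgeR is a description and not a test. It remained a trace transcript, at 0.274 TPM (counts per length on a common total) in shCdGAP cells beside 137 TPM for SLC2A1. SLC2A3 has a close copy, SLC2A14, and reads that fit both are not counted, so its level is uncertain.

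The lactate exporter gene SLC16A3 (MCT4) was measured at 283, 367 and 270 CPM in shCdGAP and at 342, 361 and 357 CPM in shCon libraries. Replicate 2 was the highest of all 6 libraries and the other shCdGAP libraries were below all shCon libraries. The log2 fold change was -0.20 (SE 0.111, edgeR adjusted p = 0.157), and without shCdGAP replicate 2 it was -0.36 (adjusted p = 1.62e-14). SLC16A1 (MCT1), which carries lactate in either direction, differed little, at 358 to 397 CPM in shCdGAP and 386 to 397 CPM in shCon libraries (log2 fold change -0.05, adjusted p = 0.331, and -0.10 without shCdGAP replicate 2, adjusted p = 0.00169).

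Of the 17 enzyme genes of the pathway, 4 were higher (HK1, PFKP, ALDOC and ENO2), 3 were lower (GPI, PFKL and LDHB) and 10 did not pass. The calls were thus 23.5% higher and 17.6% lower, against 24.1% and 22% of all tested genes. The log2 fold changes of the enzymes had a median of -0.04. Together the enzymes took 15026, 17481 and 14275 TPM in shCdGAP and 15310, 15984 and 15398 TPM in shCon libraries. Their sum was thus highest in shCdGAP replicate 2, and in the other shCdGAP libraries it was below every shCon library. Per length, GAPDH and ENO1 were the most abundant of the members in shCon cells, at 3572 and 2952 TPM, followed by LDHA and PGK1 at 1808 and 1765 TPM.

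HK1 and HK2 phosphorylate glucose at the first step and both can sit on the mitochondrial outer membrane. HK1 (10:69269984-69401882) was measured at 801, 823 and 776 CPM in shCdGAP and at 439, 446 and 430 CPM in shCon libraries. The groups were far apart and the libraries within each close together, with a log2 fold change of 0.87 (SE 0.0364, edgeR adjusted p = 1.92e-07) that was 0.84 without shCdGAP replicate 2. HK2, the isozyme induced by HIF, was measured at 168 to 193 CPM in shCdGAP and at 168 to 171 CPM in shCon libraries. The groups of HK2 overlapped (log2 fold change 0.09, SE 0.0502, adjusted p = 0.174). HKDC1, a further hexokinase gene directly upstream of HK1 on the same strand, was higher as well, at 25.01, 17.7 and 24.7 CPM against 2.96, 3.22 and 2.48 CPM (log2 fold change 2.95, SE 0.164, adjusted p = 1.72e-06). Here shCdGAP replicate 2 was the lowest of the shCdGAP libraries. The 20 tested neighbours of HK1 had a median log2 fold change of 0.41, and 16 of them were above 0.

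GPI turns glucose 6-phosphate into fructose 6-phosphate, and it was measured at 396, 431 and 379 CPM in shCdGAP and at 474, 472 and 460 CPM in shCon libraries. All shCdGAP libraries were lower, by a log2 fold change of -0.22 (SE 0.0491, edgeR adjusted p = 0.00397). Phosphofructokinase, the committed step, has 3 isozyme genes. PFKL, the liver type, was measured at 164, 198 and 154 CPM in shCdGAP and at 224, 229 and 229 CPM in shCon libraries (log2 fold change -0.40, SE 0.0827, adjusted p = 0.00365). PFKP, the platelet type, was measured at 290, 328 and 279 CPM in shCdGAP and at 250, 263 and 255 CPM in shCon libraries (log2 fold change 0.22, SE 0.0587, adjusted p = 0.00951). Without shCdGAP replicate 2 the log2 fold change was -0.52 for PFKL and 0.14 for PFKP. PFKL was thus lower and PFKP higher, and neither pair of groups overlapped. PFKM, the muscle type, lay at 203 to 208 CPM against 191 to 196 CPM without passing the test (log2 fold change 0.08, adjusted p = 0.0666). These calls depended on single libraries. That on GPI was lost without any one library other than shCdGAP replicate 2 (adjusted p of 0.0104 to 0.0184), that on PFKL without shCdGAP replicate 1, shCon replicate 2 or shCon replicate 3 (0.012 to 0.0158), and that on PFKP without shCdGAP replicate 1 or any one shCon library (0.0257 to 0.0559) or with at least 10 reads in every library (0.0112).

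Aldolase cleaves the 6-carbon sugar, and ALDOC, the brain type, was measured at 25.7, 37.1 and 25.7 CPM in shCdGAP and at 12.7, 13.2 and 13.9 CPM in shCon libraries. It was higher in all shCdGAP libraries by a log2 fold change of 1.15 (SE 0.148, edgeR adjusted p = 0.000324), or 0.95 without shCdGAP replicate 2, which brings it under 2-fold. ALDOA, the abundant type, lay at 1450 to 1683 CPM in shCdGAP and 1599 to 1696 CPM in shCon libraries with overlap (log2 fold change -0.07, adjusted p = 0.297). ENO2, the neuronal enolase gene, was measured at 64.8, 86.6 and 61.0 CPM in shCdGAP and at 43.7, 47.1 and 51.2 CPM in shCon libraries (log2 fold change 0.58, SE 0.138, adjusted p = 0.00935). Its log2 fold change was 0.41 without shCdGAP replicate 2. The shCdGAP libraries of ENO2 were all higher, replicate 2 most of all, and the call was lost without shCdGAP replicate 1 or any one shCon library (adjusted p of 0.0132 to 0.0333) and without the filter on low counts (0.0891).

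LDHB, the lactate dehydrogenase subunit that is common in heart, was measured at 592, 626 and 586 CPM in shCdGAP and at 707, 713 and 703 CPM in shCon libraries. It was lower in all shCdGAP libraries (log2 fold change -0.23, SE 0.0366, edgeR adjusted p = 0.000543). LDHA, the subunit induced by HIF, was measured at 2611, 3003 and 2446 CPM in shCdGAP and at 2782, 2887 and 2761 CPM in shCon libraries. Its groups overlapped through shCdGAP replicate 2, the other shCdGAP libraries being below all shCon libraries, and the log2 fold change was -0.06 (adjusted p = 0.449), or -0.16 without that library (adjusted p = 7.28e-06).

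PGK1, which makes the first ATP of the payoff phase, had the widest spread of the abundant enzymes, at 2058, 2824 and 1910 CPM in shCdGAP against 2306, 2481 and 2388 CPM in shCon libraries. shCdGAP replicate 2 was above and the other shCdGAP libraries below all shCon libraries. The log2 fold change was -0.08 (SE 0.146, edgeR adjusted p = 0.669), or -0.28 without replicate 2 (adjusted p = 0.000547). ALDOA, TPI1, PGAM1, ENO1 and PKM behaved alike, with log2 fold changes of -0.12 to -0.04 that did not pass and of -0.18 to -0.11 that passed without shCdGAP replicate 2. GAPDH, often taken as a reference gene, lay at 2591 to 3111 CPM in shCdGAP and 2619 to 2714 CPM in shCon libraries and passed in neither comparison (log2 fold change 0.07, adjusted p = 0.368, and -0.02, adjusted p = 0.384). Without shCdGAP replicate 2, 10 of the 17 enzymes were lower and 4 were higher (58.8% and 23.5%, against 30% and 30% of the genes then tested). The median change was then -0.14 on the log2 scale. GAPDH, PGK1, PGAM1, ENO1, LDHA, TPI1 and ALDOA have processed pseudogenes or close copies, and since reads with several alignments were not counted their levels are uncertain.

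**Figure D3:**
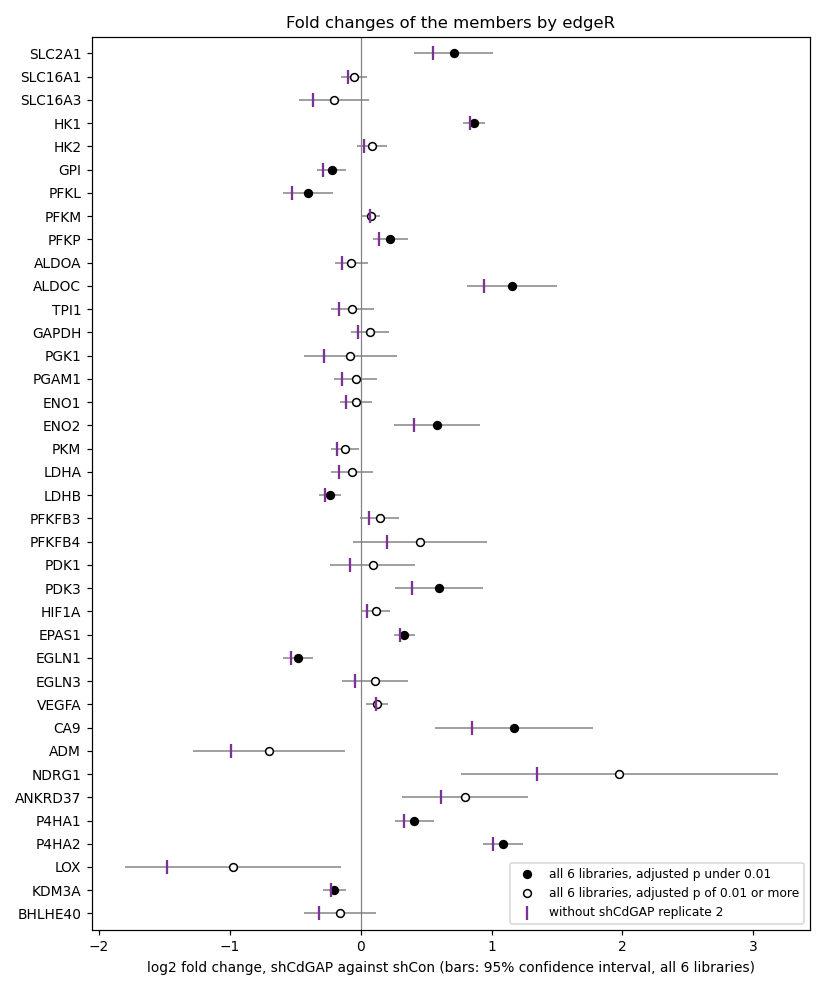
Log2 fold change of shCdGAP over shCon cells for each member with its 95% confidence interval, and the value without shCdGAP replicate 2. Points are values from all libraries, filled where the adjusted p was under 0.01, and the purple ticks, which leave out that library, lie to the left of every point. SLC2A3 is left out.

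Of the kinases that steer the pathway, PFKFB3 and PFKFB4 set the level of fructose 2,6-bisphosphate, the activator of phosphofructokinase, and PDK1 and PDK3 switch off pyruvate dehydrogenase and so keep pyruvate from the mitochondria. PDK3 was measured at 25.1, 35.2 and 24.3 CPM in shCdGAP and at 17.7, 19.7 and 18.6 CPM in shCon libraries, and it was the only one of the 4 to pass (log2 fold change 0.60, SE 0.143, edgeR adjusted p = 0.00814). Without shCdGAP replicate 2 its log2 fold change was 0.39, and without any one shCon library the call was lost (adjusted p of 0.0203 to 0.0343). PFKFB4 was measured at 58.5, 83.2 and 47.7 CPM in shCdGAP and at 42.9, 47.4 and 48.1 CPM in shCon libraries. Only shCdGAP replicates 1 and 2 of PFKFB4 lay above all shCon libraries, and it did not pass (log2 fold change 0.46, SE 0.206, adjusted p = 0.107, and 0.20 without shCdGAP replicate 2, adjusted p = 0.225). PDK1 lay at 75.4 to 108 CPM against 75.9 to 87.6 CPM (log2 fold change 0.09, adjusted p = 0.588), and PFKFB3 at 176 to 209 CPM against 162 to 177 CPM (log2 fold change 0.15, adjusted p = 0.0826).

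The isozymes were also compared as shares of their family within each library, per length, which do not depend on the scaling of libraries. With 3 against 3 libraries the exact permutation test (two-sided) cannot give a p under 0.1, and after adjustment over 11 shares the smallest value was 0.122. HK2 made up 18.4% ± 0.614 of HK1 and HK2 in shCdGAP cells and 27.9% ± 0.386 in shCon cells (SD, n = 3 each, exact permutation p = 0.1). PFKP made up 56.6% ± 0.857 of the phosphofructokinase transcripts against 50.4% ± 0.551, and PDK3 63.6% ± 0.963 of PDK1 and PDK3 against 55.3% ± 1.24. These differences were larger than the spread of the libraries, and no library of one group entered the range of the other. ALDOC rose from 1.68% to 3.81% of its family, ENO2 from 1.47% to 2.23% and P4HA2 from 3.33% to 5.22%, while LDHB went from 34.4% to 31.9% of the lactate dehydrogenase transcripts. The groups overlapped for the shares of SLC16A3 (32.2% in shCdGAP and 34.7% in shCon cells) and PFKFB4 (22.6% and 19.4%).

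**Figure D4:**
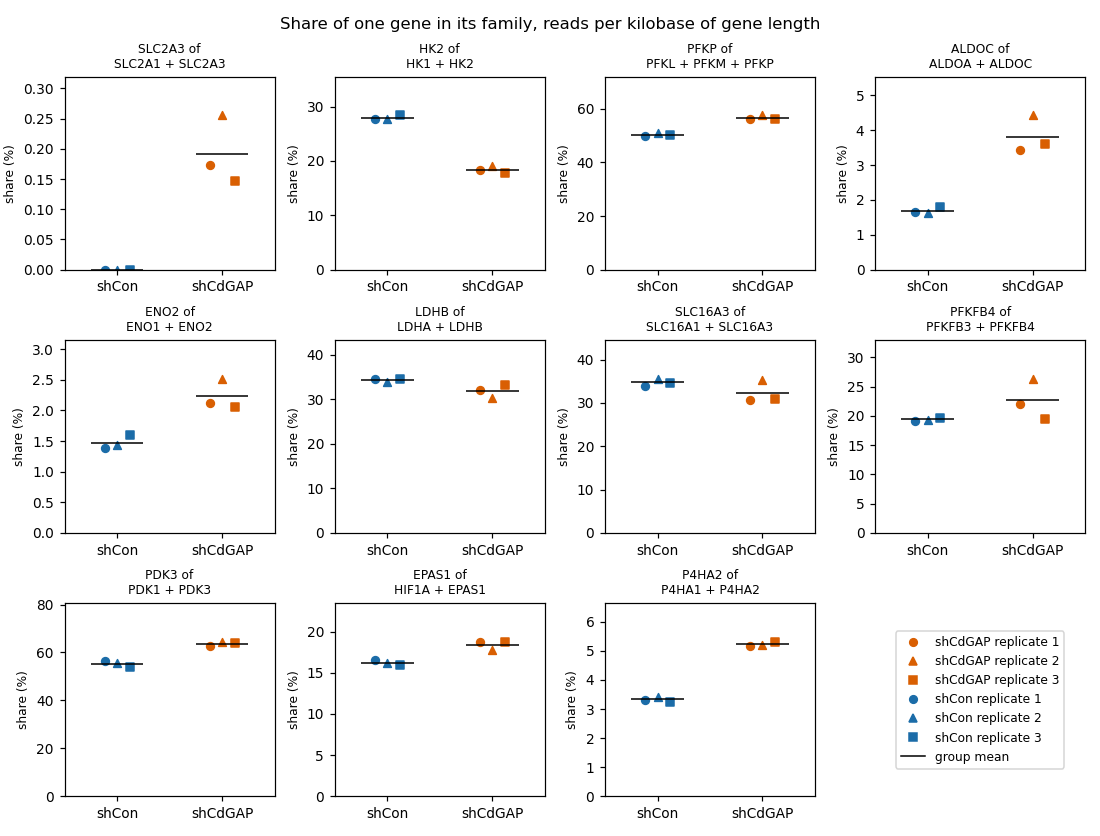
Share of the named isozyme or paralogue in its family (vertical axis in percent, from counts per length) in each library (points), with the mean of each group as a line. The HK2 share is 18.4% in shCdGAP and 27.9% in shCon cells. The groups are separate in 9 of the 11 families, among them that of SLC2A3, which has no shCon read and so had to be separate. For the levels of single genes, the groups did not overlap for 67.1% of all tested genes.

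Of the genes of the oxygen sensor itself, EPAS1, which encodes HIF-2 alpha, was measured at 173, 181 and 172 CPM in shCdGAP and at 142, 138 and 137 CPM in shCon libraries. It was higher in all shCdGAP libraries, by a log2 fold change of 0.33 (SE 0.0357, edgeR adjusted p = 5.4e-05). HIF1A, the other alpha subunit, is regulated mainly at the level of its protein, and its transcript lay at 526 to 589 CPM in shCdGAP and at 504 to 509 CPM in shCon libraries (log2 fold change 0.11, SE 0.0472, adjusted p = 0.0639). The groups of HIF1A did not overlap although the test was not passed, and its log2 fold change was 0.05 without shCdGAP replicate 2. EGLN1 (PHD2), the main hydroxylase that marks HIF alpha subunits for degradation, was measured at 88.3, 93.2 and 81.7 CPM in shCdGAP and at 120, 124 and 122 CPM in shCon libraries. It was lower in all shCdGAP libraries (log2 fold change -0.48, SE 0.0503, adjusted p = 5.02e-05) and at -0.53 without shCdGAP replicate 2. EGLN3 (PHD3), itself a HIF target, lay at 30.6 to 42.0 CPM against 31.3 to 33.9 CPM and did not pass (log2 fold change 0.11, adjusted p = 0.425).

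Other genes of oxygen sensing were taken from a list of companion genes, of which 16 were tested. Of these 3 were higher and 4 were lower (18.8% and 25%, against 24.1% and 22% of all tested genes). Without shCdGAP replicate 2, 7 were lower (43.8%, against 30% of the genes then tested). VHL, the subunit of the ubiquitin ligase that recognises hydroxylated HIF alpha, was measured at 121, 119 and 122 CPM in shCdGAP and at 181, 177 and 185 CPM in shCon libraries (log2 fold change -0.59, SE 0.0344, edgeR adjusted p = 1.38e-06). Its 20 tested neighbours had a median log2 fold change of -0.46. Its scaffold partner CUL2 was higher (139 ± 5.52 to 191 ± 2.015 CPM, log2 fold change 0.46), as was the adaptor ELOC (81.6 ± 0.447 to 98.3 ± 0.204 CPM, log2 fold change 0.27). The ubiquitin ligase gene SIAH2, which acts on the hydroxylases, was lower (log2 fold change -0.33, adjusted p = 0.00011).

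The remaining 10 members are targets of HIF outside glycolysis. Of these 3 were higher and 1 was lower (30% and 10%, against 24.1% and 22% of all tested genes), and 6 did not pass. CA9, a carbonic anhydrase of the cell surface and a common marker of hypoxic tumour cells (9:35673856-35681159), was measured at 32.6, 52.3 and 28.0 CPM in shCdGAP and at 15.8, 16.8 and 17.7 CPM in shCon libraries. All shCdGAP libraries were higher, with a log2 fold change of 1.17 (SE 0.245, edgeR adjusted p = 0.00756) that was 0.85 without shCdGAP replicate 2 (adjusted p = 7.02e-13). CA9 was the only member on chromosome 9, where the tested genes had a median log2 fold change of -0.42, while its own 20 neighbours had a median of 0.18. The call on CA9 was lost when any one shCon library was left out, with adjusted p-values of 0.0194 to 0.0287, and without the filter on low counts (0.053).

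P4HA1 and P4HA2 encode the catalytic subunits of the enzyme that hydroxylates prolines of collagen. P4HA2 was measured at 88.6, 97.2 and 81.4 CPM in shCdGAP and at 41.0, 43.8 and 41.0 CPM in shCon libraries (log2 fold change 1.09, SE 0.066, edgeR adjusted p = 1.74e-06), and it kept 1.01 without shCdGAP replicate 2. P4HA1, the more abundant, was measured at 592, 645 and 528 CPM in shCdGAP and at 435, 449 and 445 CPM in shCon libraries (log2 fold change 0.41, SE 0.0654, adjusted p = 0.00069). Both were higher in every shCdGAP library. The collagen genes COL1A1 and COL3A1, given above among the markers, were higher in the same libraries.

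NDRG1, a stress-induced gene that is strongly raised by low oxygen, varied the most. It was measured at 846, 2020 and 699 CPM in shCdGAP and at 259, 317 and 330 CPM in shCon libraries. Every shCdGAP library was above every shCon library, but replicate 2 held more than its fellow libraries together. The log2 fold change of 1.98 (SE 0.467) had an edgeR adjusted p of 0.017 and did not pass, and without shCdGAP replicate 2 a smaller log2 fold change of 1.35 (SE 0.161) passed with an adjusted p of 0.00499. DESeq2 called it in the full comparison, with an adjusted p of 0.000546. ANKRD37 lay just outside the threshold, at 3.38, 4.50 and 3.06 CPM against 1.55, 2.32 and 2.48 CPM (log2 fold change 0.80, adjusted p = 0.010001), and passed without shCdGAP replicate 2 (0.61, adjusted p = 0.00115). VEGFA was measured at 64.3 to 65.1 CPM in shCdGAP and 58.0 to 61.0 CPM in shCon libraries, a narrow separation that did not pass (log2 fold change 0.13, SE 0.0376, adjusted p = 0.018). It passed without shCdGAP replicate 2 (0.12, adjusted p = 0.00364) and with scaling by library totals alone (0.15, adjusted p = 0.00852).

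The other targets had negative log2 fold changes, of which only that of KDM3A passed. LOX, the lysyl oxidase that cross-links collagen, was measured at 8.36, 17.2 and 7.16 CPM in shCdGAP and at 19.8, 22.3 and 22.8 CPM in shCon libraries. The groups did not overlap, the log2 fold change was -0.98 (SE 0.333, edgeR adjusted p = 0.0474), and without shCdGAP replicate 2 it was -1.48 (adjusted p = 9.23e-19). ADM, which encodes the vasodilator peptide adrenomedullin, was measured at 28.7, 42.7 and 23.1 CPM in shCdGAP and at 44.6, 55.0 and 54.8 CPM in shCon libraries (log2 fold change -0.70, SE 0.235, adjusted p = 0.0448). Without shCdGAP replicate 2 the log2 fold change of ADM was -0.99 (adjusted p = 0.0146), so it passed in neither comparison. KDM3A, a histone demethylase gene, was measured at 78.7, 79.0 and 75.01 CPM in shCdGAP and at 89.3, 91.2 and 87.1 CPM in shCon libraries and was the only called fall among these targets (log2 fold change -0.20, SE 0.0388, adjusted p = 0.00187, or 0.0102 without shCon replicate 2). BHLHE40, a transcriptional repressor gene, lay at 224 to 300 CPM against 266 to 288 CPM (log2 fold change -0.15, adjusted p = 0.288), and at -0.32 without shCdGAP replicate 2 (adjusted p = 4.55e-12). Targets of the same factors thus moved in both directions: CA9, P4HA1 and P4HA2 were higher and KDM3A was lower in shCdGAP cells.

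A further list held 37 tested genes that low oxygen induces, none of them a member. For 30 of these, shCdGAP replicate 2 was the highest shCdGAP library (81.1%, against 41.4% of all tested genes). In the full comparison 9 were higher and 4 were lower (24.3% and 10.8%, against 24.1% and 22% of all tested genes). The median change was 0.00 on the log2 scale. Without that library 12 were higher and 16 were lower (32.4% and 43.2%, against 30% and 30% of the genes then tested). The largest changes were rises. RORA, a nuclear receptor gene, was measured at 16.9, 20.1 and 15.0 CPM against 1.34, 1.63 and 1.57 CPM (log2 fold change 3.52, SE 0.141, edgeR adjusted p = 1.54e-07). TMEM45A and the repressor gene BHLHE41, a close relative of BHLHE40, were higher as well, with log2 fold changes of 1.58 (adjusted p = 0.000592) and 1.40 (adjusted p = 9.79e-08). Without shCdGAP replicate 2 the log2 fold changes of TMEM45A and BHLHE41 were 1.33 and 1.34.

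Genes of this list that were picked after their values had been seen show how far replicate 2 could depart. STC1, which encodes stanniocalcin, was measured at 42.5, 120 and 33.5 CPM in shCdGAP and at 11.4, 12.2 and 12.3 CPM in shCon libraries (log2 fold change 2.46, SE 0.591, edgeR adjusted p = 0.018), and its log2 fold change was 1.67 without that library. DDIT4, an inhibitor of mTORC1 signalling, was measured at 99.4, 189 and 96.0 CPM against 177, 192 and 197 CPM (log2 fold change -0.56, edgeR adjusted p = 0.168). Without shCdGAP replicate 2 its log2 fold change was -0.96 (adjusted p = 2.13e-12). That library lay within the shCon range and the other shCdGAP libraries far below it. ANGPTL4 had the same order, at 11.1, 35.9 and 8.53 CPM against 23.6, 40.4 and 37.5 CPM. Its log2 fold change was -0.85, or -1.78 without shCdGAP replicate 2, and it passed in neither comparison (edgeR adjusted p of 0.291 and 0.0267).

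Among 18 tested isozymes and carriers of glycolysis that are not members, 8 were higher and 3 were lower (44.4% and 16.7%, against 24.1% and 22% of all tested genes). Without shCdGAP replicate 2, 8 were higher and 5 were lower (44.4% and 27.8%, against 30% and 30% of the genes then tested). Beside HKDC1 the called genes of this list included the glucose carrier genes SLC2A12, which was higher (4.69 ± 0.17 to 9.84 ± 1.89 CPM, log2 fold change 1.07), and SLC2A10, which was lower from a low level (0.76 ± 0.183 to 0.227 ± 0.0517 CPM, log2 fold change -1.73). LDHD, which oxidises D-lactate, was higher (log2 fold change 0.89, edgeR adjusted p = 0.00147). Of all 125 tested genes of the companion lists, 36 were higher and 26 were lower (28.8% and 20.8%), beside 24.1% and 22% of all tested genes. Without shCdGAP replicate 2, 43 were higher and 52 were lower, where 30% of the genes then tested were higher and 30% were lower.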

How the data were processed

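RNA of PC-3 cells with shCdGAP (3 libraries) or shCon (3 libraries) was sequenced. Per the deposited tables (1 for each sample), the authors counted reads for every gene, and these raw counts are not normalized. Submitters' processing notes name FastQC 0.11.5, STAR 2.5.1b and GRCh38. The table headers name featureCounts 1.6.0, Ensembl release 77 and strand-specific counting of read pairs without multiple alignments, whereas the methods name version 1.4.6 and a single-read kit. Gene lengths are the merged exon lengths of the deposited tables.

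Counts were filtered with filterByExpr and scaled by TMM, and the 16439 genes kept were fitted by the robust quasi-likelihood method of edgeR 4.0.16 under R 4.3.3, without a pairing term. Calls used a Benjamini-Hochberg adjusted p under 0.01, alone or with a fold above 2. SE is the absolute log2 fold change over the square root of F. CPM uses TMM-scaled totals, and TPM was computed from counts and lengths. A group without reads was set to 3 reads per library. Of 64253 genes, 56105 matched a symbol. Members and companion lists were chosen with earlier results of these data known. All members are named, with up to 4 genes of each companion list that had the largest called change without overlap of groups. A few genes that this rule or the marker lists name are not reported here. The fit was tested on simulated counts. DESeq2 1.42.0, other scalings and filters, a replicate block, a threshold of 0.05 and leaving out each library were alternatives. The methods name 3 independent samples per group, and the p-values from all libraries measure the spread between these samples of 1 pair of cell lines. Those without shCdGAP replicate 2, a library singled out by its values, are not comparable with them. Sequences are from RefSeq (GRCh38.p14). Totals per library limit the precision of low genes such as SLC2A3.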

Additional observations from a re-analysis of the deposited data

How the results depend on the processing

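No called member changed direction in any of the 12 alternatives to the fit. Of those that did not pass, GAPDH, EGLN3 and PDK1 were at -0.02, -0.04 and -0.08 on the log2 scale without shCdGAP replicate 2, and PGK1 and PGAM1 at 0.02 and 0.01 without shCdGAP replicate 3, and each of these missed the threshold there too. Of the 16 called members, 8 stayed called in every alternative that gave a value (SLC2A3, HK1, ALDOC, LDHB, EPAS1, EGLN1, P4HA1 and P4HA2), of which SLC2A3 had to differ for want of shCon reads, and 8 were lost in at least 1 (SLC2A1, GPI, PFKL, PFKP, ENO2, PDK3, CA9 and KDM3A). The number of higher members was 13 with DESeq2, 11 with upper-quartile scaling, 13 with library totals alone, 10 without a filter on low counts, 9 with at least 10 reads in every library and 14 at an adjusted p under 0.05. The number of lower members was 5 in each of these except the last, where it was 7. With 1 library left out at a time, the number of higher members ranged from 6 to 14, of lower members from 2 to 16 and of members lower by more than 2-fold from 0 to 1, and the companion genes that were lower ranged from 16 to 52. The upper ends (16 lower members, 1 lower by over 2-fold, 52 lower companion genes) came without shCdGAP replicate 2, and the fewest higher members (6) came without shCon replicate 1. The 23 members that did not pass included 15 that passed in at least 1 alternative, 14 of them without shCdGAP replicate 2. With the replicate number as a block, 12 members were higher and 5 were lower. The labels give no pairing, and the numbers were not taken as pairs. Same-numbered libraries of the 2 groups deviated from their group means with correlations of 0.0464, 0.0666 and 0.067 over 16439 genes. For libraries with different numbers the correlations were -0.114 to 0.0502. Depth limits most the rarest member, SLC2A3, with at most 28 reads in a library. ANKRD37 had 65 to 196 reads per library, and its edgeR adjusted p of 0.010001 lay at the threshold.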

Other observations

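Pathways that take up the products of glycolysis or branch from it were listed in the same way. Of 11 tested genes of pyruvate entry and the pyruvate dehydrogenase complex, 4 were higher and 3 were lower (36.4% and 27.3%, against 24.1% and 22% of all tested genes). Without shCdGAP replicate 2 they were 5 and 4 (45.5% and 36.4%, against 30% and 30% of the genes then tested). PDP1, the phosphatase that switches the complex on, was measured at 38.7, 41.1 and 42.45 CPM in shCdGAP and at 18.4, 18.9 and 17.8 CPM in shCon libraries (log2 fold change 1.15, SE 0.054, edgeR adjusted p = 3.59e-07). PDHA1, the catalytic subunit that it acts on, was lower, at 155 ± 5.99 against 197 ± 0.661 CPM (log2 fold change -0.34). Pyruvate carboxylase (PC) and the pyruvate carrier gene MPC1 were higher, with log2 fold changes of 0.61 and 0.48. shCdGAP replicate 2 was the highest shCdGAP library for 3 of these 11 genes (27.3%, against 41.4% of all tested genes), beside 37 of the 39 genes of glycolysis and hypoxia.

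Of 18 tested genes of the citric acid cycle, 4 were higher and 6 were lower (22.2% and 33.3%, against 24.1% and 22% of all tested genes). Without shCdGAP replicate 2, 10 were lower (55.6%, against 30% of all genes then tested). SUCLA2, a subunit of succinyl-CoA synthetase, fell from 64.7 ± 2.15 to 17.1 ± 1.03 CPM (log2 fold change -1.91, SE 0.0555, edgeR adjusted p = 3.17e-08). It lies on chromosome 13, where the 271 tested genes had a median log2 fold change of -0.99, and 0 of its 20 tested neighbours were above 0. No gene of the 39 lies on that chromosome. IDH2 and SDHC were higher (log2 fold changes of 0.48 and 0.34), and MDH2 was lower (-0.27).

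Of 10 tested genes of the pentose phosphate pathway, 3 were higher and 3 were lower (30% and 30%, against 24.1% and 22% of all tested genes). Without shCdGAP replicate 2, 5 were lower (50%, against 30% of the genes then tested). H6PD, the enzyme of the endoplasmic reticulum, was higher (44.3 ± 2.92 to 74.0 ± 5.72 CPM, log2 fold change 0.74), and RPIA, RPE and PRPS2 were lower, with log2 fold changes of -0.56, -0.45 and -0.29. Of 15 tested genes of gluconeogenesis and glycogen, 5 were higher and 3 were lower (33.3% and 20%, against 24.1% and 22% of all tested genes). Without shCdGAP replicate 2 they were 7 and 5 (46.7% and 33.3%, against 30% and 30% of the genes then tested). PCK2, the mitochondrial phosphoenolpyruvate carboxykinase, was measured at 17.4, 17.9 and 18.2 CPM against 8.72, 8.93 and 9.32 CPM (log2 fold change 0.99, edgeR adjusted p = 2.17e-06). G6PC3, a glucose 6-phosphatase, was higher (log2 fold change 0.85), while SLC37A4, the carrier that brings its substrate into the endoplasmic reticulum, was lower (-0.70). FBP1, the enzyme opposite to phosphofructokinase, was lower from a low level (0.812 ± 0.11 to 0.255 ± 0.1 CPM, log2 fold change -1.62). It lies on chromosome 9, and its 20 tested neighbours had a median log2 fold change of -0.50.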
